A study of Mus musculus with 14 samples.

Results

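Th17 cultures were compared with Th1 cultures where both had received acetate: 5 arrays (3 Th17, 2 Th1) of the 14 in the study, chosen by their sample titles. All samples were mouse CD4+ T cells from spleen and lymph nodes, polarised in culture and hybridised to Affymetrix 430 2.0 arrays, with 1 signal per probe set (the labels of the Th17 samples do not name the array type). All cultures received human IL-2 at 100 U/ml. The Th17 cultures also received human TGF-b1 at 5 ng/ml, mouse IL-6 and TNF-a at 20 ng/ml each, mouse IL-1b, IL-23 and IL-21 at 10 ng/ml each, and antibodies against IL-4 and IFN-gamma. The Th1 cultures received mouse IL-12 at 10 ng/ml and an antibody against IL-4, without the antibody against IFN-gamma. Acetate was present at 10 mM; the protocol of the treated Th1 samples says acetone, whereas the series' design text gives sodium acetate for every subset. Culture lasted 5 days by the protocols and 6 to 7 by the design text. Untreated Th17 (3 arrays) and Th1 (2 arrays) cultures, which share no array with the acetate cultures, gave the same lineage comparison without acetate. No label says whether replicate arrays came from separate mice or cultures, so p-values measure the spread between these arrays, which may be technical.

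Th1 cells, driven by IL-12 and the factor T-bet (Tbx21), secrete interferon gamma, and some carry cytotoxic granules. Th17 cells arise under TGF-beta with IL-6, rest on STAT3, and secrete IL-17 at mucosal surfaces. Gut bacteria release acetate, a short-chain fatty acid that the receptor Ffar2 senses and that cells convert to acetyl-CoA. The question was which differences between the lineages were present when both were exposed to it.

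The upstream sequences of 5 genes are shown because their groups are described below: 3 Th17 genes with some of the largest differences, and 2 genes of the hypoxia response. All 5 were picked from genes whose window holds the letters marked, so they do not stand for their groups. Each is the 250 bases before a RefSeq gene start in build GRCm38.p6, written 5′ to 3′ on the gene's strand. Capitals in the first 3 mark AGGTCA on either strand, the half-site that the nuclear receptor Rora binds. Capitals in the last 2 mark ACGTG or GCGTG on either strand, the core letters of the hypoxia response element; CACGTG holds overlapping matches on both strands.
Il17a, chr1:20730655-20730904, plus strand: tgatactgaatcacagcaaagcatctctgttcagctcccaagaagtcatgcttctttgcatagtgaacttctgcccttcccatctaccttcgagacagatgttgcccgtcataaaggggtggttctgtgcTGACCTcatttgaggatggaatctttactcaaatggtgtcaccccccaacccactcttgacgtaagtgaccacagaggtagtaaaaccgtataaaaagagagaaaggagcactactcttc
Ccr6, chr17:8235793-8236042, plus strand: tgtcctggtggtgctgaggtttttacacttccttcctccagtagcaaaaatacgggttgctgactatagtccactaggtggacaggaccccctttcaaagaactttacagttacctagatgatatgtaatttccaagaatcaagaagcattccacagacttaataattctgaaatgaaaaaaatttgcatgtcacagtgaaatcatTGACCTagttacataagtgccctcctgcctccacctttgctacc
Ccl20, chr1:83116516-83116765, plus strand: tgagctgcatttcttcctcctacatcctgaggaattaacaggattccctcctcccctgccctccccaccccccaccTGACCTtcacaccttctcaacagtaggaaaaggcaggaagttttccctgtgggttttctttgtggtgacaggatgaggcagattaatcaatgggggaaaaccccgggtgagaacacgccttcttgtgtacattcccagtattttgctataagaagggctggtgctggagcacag
Bnip3, chr7:138909507-138909756, minus strand: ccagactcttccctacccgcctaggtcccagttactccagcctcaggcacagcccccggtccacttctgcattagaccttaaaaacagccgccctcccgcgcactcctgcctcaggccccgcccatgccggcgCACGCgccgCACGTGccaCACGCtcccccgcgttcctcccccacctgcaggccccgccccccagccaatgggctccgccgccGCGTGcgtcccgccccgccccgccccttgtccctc
Egln1, chr8:124949255-124949504, minus strand: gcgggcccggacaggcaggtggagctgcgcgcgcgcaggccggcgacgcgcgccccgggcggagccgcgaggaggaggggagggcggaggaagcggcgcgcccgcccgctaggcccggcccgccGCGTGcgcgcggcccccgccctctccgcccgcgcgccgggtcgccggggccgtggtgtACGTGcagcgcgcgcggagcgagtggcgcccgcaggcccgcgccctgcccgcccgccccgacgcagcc
The first matched base lay 120 bases before the start of Il17a, 44 before that of Ccr6 (the window of its 2 that holds a match) and 174 before that of Ccl20. Over windows from 250 bases before to 50 after each start, AGGTCA was present in 16.3% of 32851 windows and in 14.8% of the 8920 tested genes with a window. It was present in 4 of the 8 higher Th17 program genes with a window, the fourth being Pdpn. It was also present in 2 of the 5 lower Th1 program genes with a window, Ifng and Havcr2. Il9 (6.96) and Ahr (5.28), whose differences with acetate exceed that of Ccl20 (4.93), were not among the genes with a match. The hypoxia letters are frequent in promoters. ACGTG was found in 30.2% and GCGTG in 56.6% of tested genes with a window, against 3 and 5 of the 5 higher hypoxia genes. Kdm3a, the called hypoxia gene with the largest difference (1.85), held GCGTG and not ACGTG. A match is a description of letters and not evidence of binding.

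Values below are quantile-normalized signals, in array units. Differences are Th17 minus Th1 on the scale of log2(signal + 3), from limma fitted over all 14 arrays. Every adjusted p is from that fit, with the Benjamini-Hochberg method over 10916 genes, and genes under 0.05 were called. Detection calls were not used, so a low signal is not shown to be expression.

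With acetate, 584 of 10916 genes (5.35%) differed between the lineages: 356 (3.26%) were higher in Th17 and 228 (2.09%) were lower. On signals as deposited, without quantile normalization, the split was 310 higher and 109 lower. The arrays did not overlap for 1541 genes with Th17 above (14.1%) and 1564 with Th17 below (14.3%). Among the called genes, 82 were over 4-fold higher and 46 over 4-fold lower. The median difference over all genes was -0.02 and its median standard error 0.26. The count depended on single arrays: it was 175 without Th1 acetate replicate 2, 296 without Th17 acetate replicate 2, 1181 without Th17 acetate replicate 1 and 1204 without Th1 acetate replicate 1. It was 73 when only the arrays compared were fitted. Up to 21 alternative settings were followed for 107 called genes. These were the named genes, many picked for large differences, so they do not stand for all 584. Of the 107, 28 kept their call in every setting, 47 lost it in 1 to 5 and 32 in 6 or more. The call was lost without Th1 acetate replicate 2 for 59 of them, and none changed sign. Of all 584, 151 (25.9%) kept their call without that array. Correlations of normalized log2 signals were 0.94 to 0.968 over the 4 pairs within a lineage and 0.874 to 0.942 over the 6 pairs between lineages.

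The cultures matched their labels at the lineage cytokines. Il17a, the defining Th17 cytokine, had signals of 4184, 5370 and 3126 on the Th17 arrays and 13.5 and 12.6 on the Th1 arrays. The groups were far apart. The difference was 8.01 (SE 0.33, adjusted p = 3.52e-08), the largest of any called gene whose arrays did not overlap. Ifng, the defining Th1 cytokine, had signals of 8185 and 11910 on the Th1 arrays and of 3149, 194.8 and 322.4 on the Th17 arrays. The Th17 arrays differed widely among themselves, and replicate 1 was far above the other two. The Ifng difference was -4.07 (SE 0.97, adjusted p = 0.0282). Its call was lost when Th17 acetate replicate 2, Th17 acetate replicate 3, Th1 acetate replicate 2 or the Treg arrays were left out, and when only the arrays compared were fitted, with adjusted p up to 0.196. Without acetate the Ifng difference was -1.63 and was not called (adjusted p = 0.346). The change in the Ifng difference, -2.44, was not called either (adjusted p = 0.422). With acetate, T-cell genes were present in both lineages: Cd3d was at 2177 to 3509 on the Th17 arrays and at 2604 and 2938 on the Th1 arrays. None of the 7 CD4 T cell markers measured was called by limma (0 at an unadjusted p under 0.05).

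Among secreted products, Il9 and Ccl20 followed Il17a. Il9, a mucosal cytokine, was at 878.8, 531.8 and 419.1 in Th17 against 1.09 and 2.37 in Th1, with no overlap. Its difference was 6.96 (SE 0.45, adjusted p = 2.08e-06). Ccl20, the chemokine that attracts CCR6-bearing cells, was at 226.2, 57.7 and 231.6 in Th17 against 1.41 and 2.35 in Th1. Th17 replicate 2 was the lowest of the 3 and still well above both Th1 arrays (4.93, SE 0.53, adjusted p = 0.000209). Il21 did not pass, at 260.1, 191.6 and 264.2 against 127.1 and 82.4 (difference 1.18, adjusted p = 0.226). Il17f, Il22 and Il23r had no probe set with a single gene symbol and were not analysed here.

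Of the 20 Th17 program genes tested, 10 were higher in Th17 and 1 was lower, against 3.26% and 2.09% of all genes. Their median difference was 1.21, against -0.02 over all genes. Without acetate 13 of the 20 were higher and 0 lower, against 2.91% and 3.68% of all genes. The same call was made in both settings for 8. The values that follow are with acetate. Among receptors, Ccr6, the receptor of CCL20, was at 577.7, 547.8 and 324.1 against 5.20 and 4.46 (5.91, SE 0.35, adjusted p = 1.06e-06). Pdpn, podoplanin, was also higher (2.64, SE 0.36). Il21r, the IL-21 receptor, was the member that was lower in Th17, at 230.5, 240.6 and 235.1 against 475.8 and 379.6 (-0.84, SE 0.18, adjusted p = 0.0166). Among transcription factors, Ahr, the aryl hydrocarbon receptor, was at 519.5, 750.9 and 719.4 against 22.5 and 8.22 (5.28, SE 0.34, adjusted p = 2.08e-06). Rora was higher as well (2.51, SE 0.51, adjusted p = 0.0126), with Th1 replicate 1 at 246.9 and Th1 replicate 2 at 45.6. That call was lost without Th17 acetate replicate 2 and without Th1 acetate replicate 2. Smaller differences were called for Nfkbiz (1.24), Stat3 (1.11) and Batf (0.82), factors of Th17 differentiation. The Nfkbiz call was lost under 9 of 21 alternatives, the Batf call under 8 of 21 and the Stat3 call under 2 of 21. Nfkbiz was not called without acetate (0.87, adjusted p = 0.119). Maf (1.49, adjusted p = 0.0861) and Irf4 (0.69, adjusted p = 0.104) did not pass although their arrays did not overlap, and Hif1a had a difference of 0.01 with overlapping arrays. The count of higher members was 6 without Th1 acetate replicate 2 and 14 without Th17 acetate replicate 1.

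**Figure D1:**
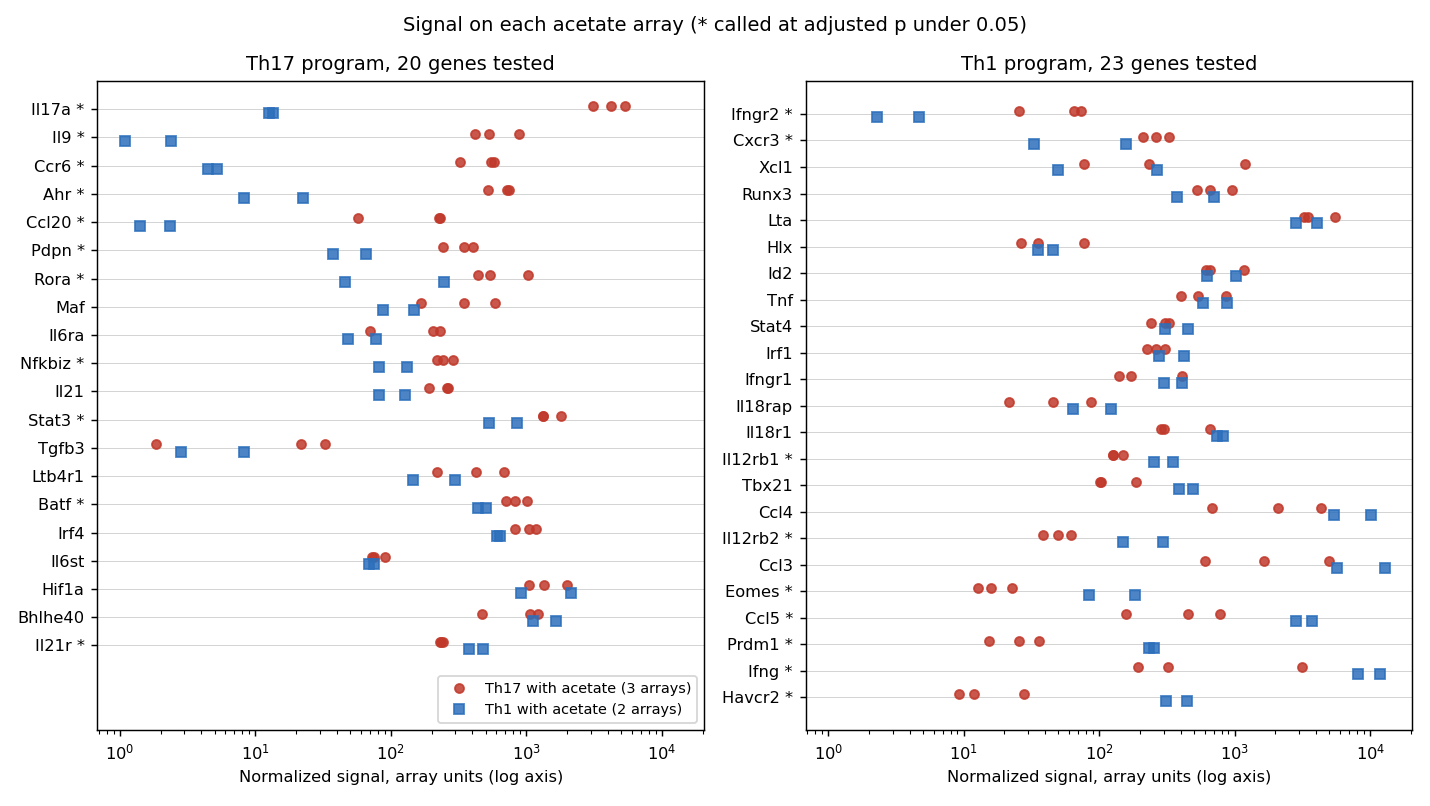
Normalized signal (log axis) of each tested Th17 program gene, left, and Th1 program gene, right, on the 3 Th17 and 2 Th1 arrays with acetate; genes are ordered by difference and an asterisk marks an adjusted p under 0.05. The Th17 arrays lie far to the right of the Th1 arrays for Il17a, Il9, Ccr6, Ahr and Ccl20, whereas the 3 Th17 arrays are widely spread for Ifng, Ccl3 and Ccl4.

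The Th1 program was divided. Of 23 genes tested, 7 were lower in Th17 and 2 were higher, against 2.09% and 3.26% of all genes, with a median of -0.95. Without acetate 7 were lower and 2 higher, against 3.68% and 2.91% of all genes. The same call was made in both settings for 6. The values that follow are with acetate unless stated. Prdm1, the transcriptional repressor BLIMP-1, was at 36.2, 15.5 and 25.8 in Th17 against 235 and 252.3 in Th1 (-3.16, SE 0.30, adjusted p = 6.45e-05). Havcr2, the inhibitory receptor TIM-3, was at 28.0, 11.9 and 9.30 against 311 and 447.5 (-4.40, SE 0.39, adjusted p = 3.13e-05). Both groups of arrays were well apart for both genes. Both chains of the IL-12 receptor were lower, Il12rb2 by -2.02 (SE 0.34, adjusted p = 0.00456) and Il12rb1 by -1.13 (SE 0.24, adjusted p = 0.0139). Eomes, a T-box factor, was also lower (-2.70, SE 0.48, adjusted p = 0.00588), and so was the chemokine Ccl5 (-3.09, SE 0.71, adjusted p = 0.0235). Tbx21 itself missed the threshold: its signals of 186.8, 101.1 and 103.9 lay below 390.7 and 489.4, and the difference was -1.78 (SE 0.49, adjusted p = 0.0518). It passed under 4 of the alternative settings. Without acetate Tbx21 was called lower in Th17 (-2.69, adjusted p = 0.00604). The change in its difference, 0.91, did not pass (adjusted p = 0.554). With acetate, the chemokines Ccl3 (-2.33, adjusted p = 0.194) and Ccl4 (-2.01, adjusted p = 0.197) did not pass, and Tnf and Lta overlapped between lineages. The count of lower members was 3 without Th1 acetate replicate 2 and 4 without Th17 acetate replicate 2.

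With acetate, both Th1 program genes that were higher in Th17 were receptors. Ifngr2, the signalling chain of the interferon gamma receptor, was at 25.8, 65.5 and 73.1 in Th17 against 4.69 and 2.29 in Th1 (3.06, SE 0.40, adjusted p = 0.000816). Cxcr3, the chemokine receptor usually linked to Th1 cells, was at 329.9, 209 and 260.5 against 157.8 and 33.0 (1.80, SE 0.45, adjusted p = 0.0374). Without acetate Cxcr3 was at 52.1, 41.9 and 63.6 against 94.6 and 75.7, a difference of -0.68 that was not called. The change in its difference was 2.48 (adjusted p = 0.15), and its call with acetate was lost under 10 of 21 alternatives. These were the replicate block, only the arrays compared, no Treg arrays, and leaving out any 1 of the Th17 arrays with or without acetate or Th1 acetate replicate 2, with adjusted p up to 0.358.

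Cytotoxic effector genes gave some of the largest differences in the opposite direction. Of 16 tested, 6 were lower in Th17 and 1 was higher, against 2.09% and 3.26% of all genes, with a median of -1.61. A single higher member is near the share of all genes. Serpinb9, the inhibitor of granzyme B, was at 43.0, 11.8 and 21.4 in Th17 against 651 and 1182 in Th1 (-5.11, SE 0.55, adjusted p = 0.000232). Serpinb6b, a related serpin, was at 140.9, 108.4 and 158.8 against 3596 and 2919 (-4.56, SE 0.24, adjusted p = 4.34e-07). Fasl, the death ligand, was at 28.9, 13.9 and 38.4 against 238.4 and 324 (-3.32, SE 0.32, adjusted p = 6.81e-05). The arrays were well separated for all 3 genes, and their calls held under every alternative run. Prf1, perforin, was at 429.5, 155.5 and 290.7 against 1588 and 4075 (-3.23, SE 0.56, adjusted p = 0.00526), a call lost without Th1 acetate replicate 2. Gzmd (-2.85) and Cst7 (-1.18) were also lower. The granzymes were uneven: Gzmb had a difference of -0.78 and Gzma of 0.42, and neither passed. Ctsw, cathepsin W, was the member that was higher in Th17 (1.21, SE 0.23, adjusted p = 0.00785). Without Th1 acetate replicate 2 the counts were 4 lower and 0 higher.

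Beyond these programs, the largest called differences with no overlap held genes of several functions. Higher in Th17 were Tox2, an HMG-box factor of follicular helper cells (5.17), Cd5l, a secreted scavenger receptor family protein (4.31), Cpd, a carboxypeptidase (4.19), Nt5e, the ectonucleotidase CD73 (3.99), Tmem176a (3.76) and Il2 (3.77). Il2 was at 1776, 952.9 and 468 against 62.5 and 67.6, and its call was lost without Th17 acetate replicate 2, Th1 acetate replicate 2 or the Treg arrays. Lower in Th17 were Mt4 (-4.66) and Mt3 (-3.20), metallothioneins that bind zinc, Ccl9, a CC chemokine (-4.36), Slc17a6, a vesicular glutamate transporter (-4.35), Etv5, an ETS factor (-3.85) and Poglut3, a protein glucosyltransferase (-3.33). Ccl9 was at 67.7, 49.3 and 45.3 in Th17 against 782.4 and 1704 in Th1. Mt4 was at 14.1, 0.742 and 4.03 against 81.0 and 445.9, and its call was lost without Th1 acetate replicate 2.

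**Figure D2:**
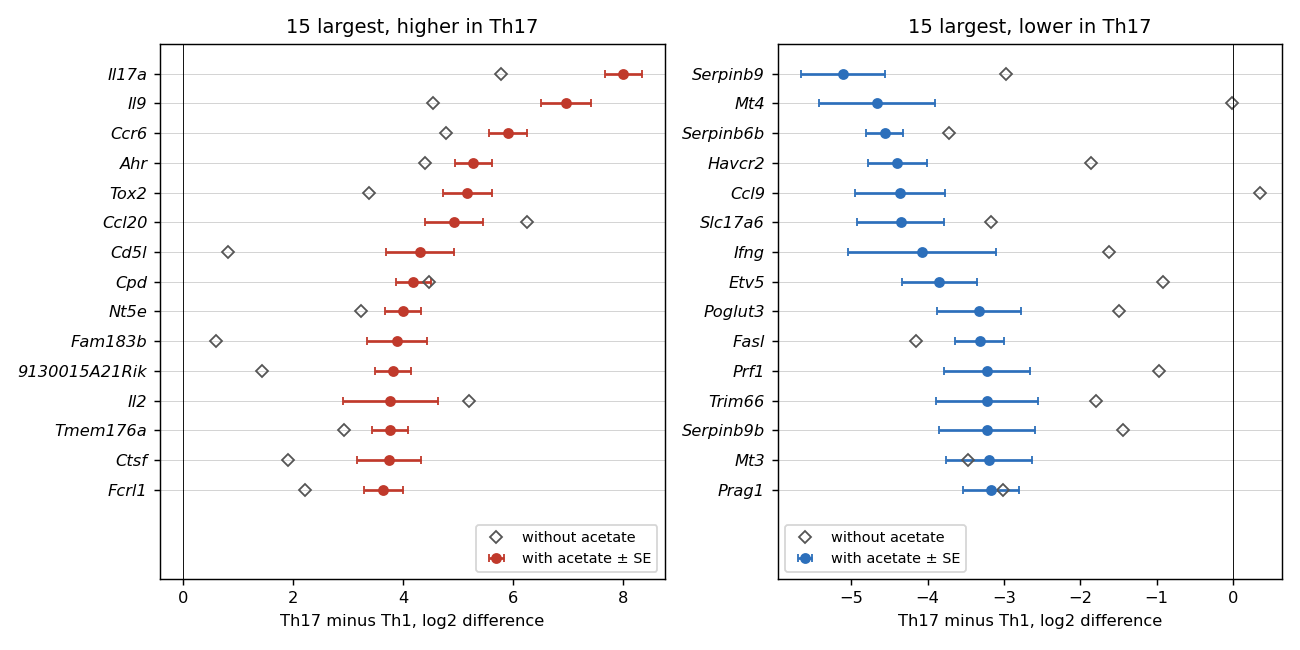
The 15 genes with the largest called differences each way, where the acetate arrays of the lineages do not overlap: Th17 minus Th1 log2 difference with acetate (filled circles with SE) and without (open diamonds). Il17a, Serpinb6b and Fasl are far from 0 in both settings, whereas Ccl9 and Mt4 stand at 0.35 and -0.01 without acetate.

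The lineage difference without acetate served as the reference for which differences stood. Without acetate 720 genes (6.6%) were called, 318 higher (2.91%) and 402 lower (3.68%) in Th17. The direction of this split turned with the scaling: it was 2906 higher and 119 lower on signals as deposited, and 486 and 215 with array medians aligned. Of the 318, 123 (38.7%) were also called higher with acetate, 194 were not called and 1 was called lower. Of the 402, 71 (17.7%) were also called lower, 329 were not called and 2 were called higher. These shares, higher and then lower, depended on single arrays. They were 15.6% and 9.65% without Th1 acetate replicate 2. Leaving out Th1 control replicate 2 gave 63.1% and 47.9%, and leaving out Th1 control replicate 1 gave 23.3% and 11%. On signals as deposited they were 7.5% and 27.7%, so their order turned. They were 27.8% and 24.7% with array medians aligned, and 7.54% and 4.09% with only the arrays compared. Most genes kept their sign with acetate, 277 of 318 (87.1%) and 320 of 402 (79.6%). The median difference of the 318 was 1.35 without acetate and 0.76 with it, and that of the 402 was -1.23 and -0.38. Chosen the other way round, the 356 genes called higher with acetate had medians of 1.36 with it and 0.70 without, and the 228 called lower had medians of -1.27 and -0.52. Conversely, 231 genes were called higher and 156 lower with acetate but not without it.

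Genes whose difference was large in both settings included the lineage cytokine Il17a, Th17 receptors and members of the cytotoxic effector list that were higher in Th1. The 10 with the largest smaller difference of the pair in each direction were Il17a, Ccl20, Ccr6, Il9, Ahr, Cpd, Il2, Crispld2, Tox2 and Gpr15 for Th17, and Serpinb6b, Fasl, Mt3, Slc17a6, Ccl5, Prag1, Serpinb9, Gzmd, Serpinb5 and Eomes for Th1. Of these, Crispld2 lost its call with acetate under 9 of 21 alternatives (adjusted p up to 0.455), and Ccl5, Gzmd and Serpinb5 lost theirs under 6 each. Gpr15, a homing receptor of the colon, was at 213.7, 80.1 and 238.7 in Th17 against 18.7 and 8.46 in Th1 with acetate, and at 603.4, 358.2 and 527.7 against 5.46 and 3.05 without. Its difference was 3.37 with acetate and 6.09 without, and the change of -2.72 did not pass (adjusted p = 0.12). Il17a was at 713.2, 637.5 and 596.6 in untreated Th17 cultures against 6.76 and 11.2 in untreated Th1, so its difference was 5.79 without acetate. The change of 2.22 did not pass either (adjusted p = 0.11).

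**Figure D3:**
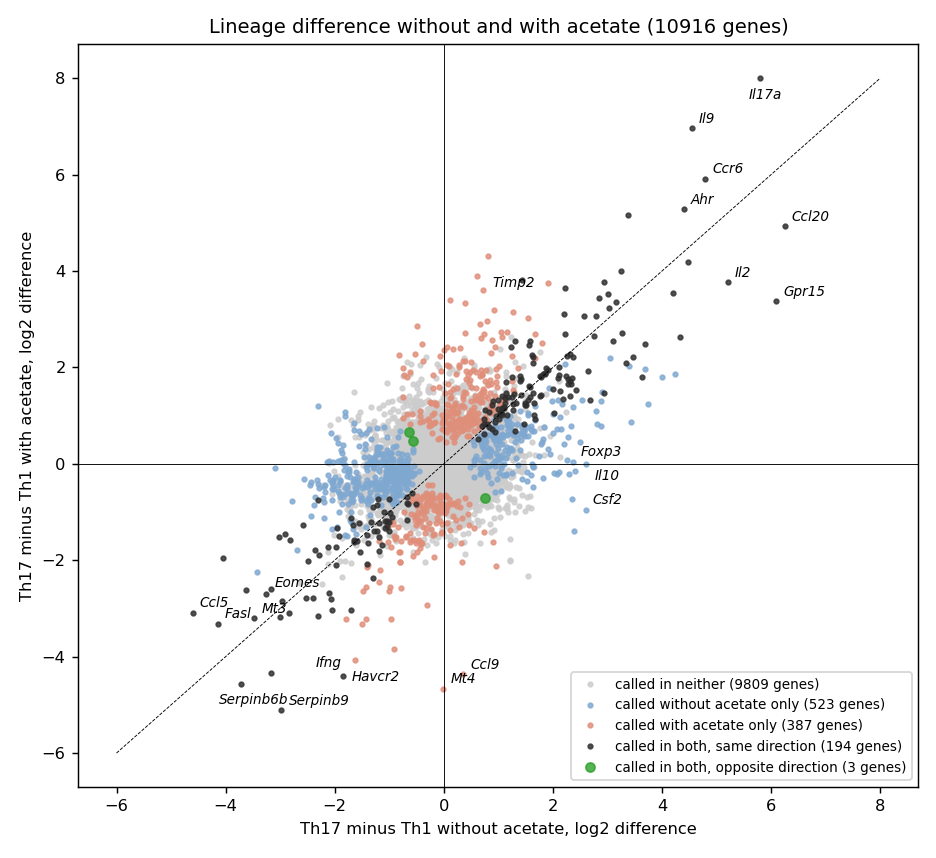
Th17 minus Th1 log2 difference of each of the 10916 genes without acetate (horizontal axis) and with acetate (vertical axis), coloured by the setting in which the gene was called; the dashed line marks equal differences. Il17a, Ccr6, Ccl20, Serpinb6b and Fasl lie near the ends of the dashed line, whereas Foxp3, Il10 and Csf2 lie near or below 0 on the vertical axis with differences above 2 on the horizontal one.

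Several cytokine and regulatory genes were called higher in untreated Th17 and were not called with acetate. Foxp3, the Treg factor, was at 14.1, 7.77 and 19.9 in Th17 against 12.7 and 12.8 in Th1 with acetate, so the lineages overlapped. Its difference was 0.04 (SE 0.33, adjusted p = 0.963), against 2.37 (adjusted p = 0.0014) without acetate. Il10, an anti-inflammatory cytokine, was at 1219, 570.8 and 717.5 against 745.5 and 843.1 with acetate, and at 342.8, 213.1 and 215.7 against 145.4 and 8.70 without. Csf2, which encodes GM-CSF, was at 29.6, 30.04 and 36.5 against 52.5 and 79.4 with acetate (-0.95, adjusted p = 0.386), against a difference of 2.60 without. The test of the change itself did not pass for any of these: -2.33 for Foxp3 (adjusted p = 0.11), -2.61 for Il10 (adjusted p = 0.28) and -3.55 for Csf2 (adjusted p = 0.12). The untreated Th1 arrays differed from each other for Il10 and Csf2 (131.2 and 17.8 for Csf2). In the Th17 program, Il21 (2.37), Il6ra (2.17), Ltb4r1 (1.67), Maf (2.90) and Irf4 (1.26) were likewise called higher without acetate but not with it. Their changes were not called (adjusted p from 0.34 to 0.57).

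The direct test of whether the lineage difference changed with acetate called 4 genes (0.0366%), all with a more positive difference under acetate, at adjusted p = 0.0439 each. No gene was called in the negative direction by limma, although 699 had an unadjusted p under 0.05. Timp2, a metalloproteinase inhibitor, was at 754.9, 976 and 743.6 in Th17 against 103.3 and 40.2 in Th1 with acetate, and at 321.4, 291 and 312.2 against 142.8 and 240.9 without. The change was 2.88. Cox7a1, a subunit of cytochrome c oxidase, was at 73.0, 108.7 and 96.0 against 24.4 and 10.9 with acetate and at 16.6, 17.6 and 17.0 against 23.4 and 28.6 without, a change of 2.80. Epcam, an adhesion molecule, was lower in untreated Th17 (-1.99) and did not differ detectably with acetate (0.53, adjusted p = 0.27). Lrmp, an endoplasmic reticulum membrane protein of lymphocytes, was lower in Th17 in both settings, by -2.32 without and -0.76 with acetate. The count of 4 was 0 when any Th17 control array, Th17 acetate replicate 2, Th1 control replicate 2 or Th1 acetate replicate 2 was left out. It was 537 without Th1 acetate replicate 1, 218 without Th1 control replicate 1, 31 without Th17 acetate replicate 1 and 13 without Th17 acetate replicate 3. On signals as deposited the direction turned, with 0 genes called in the positive and 11 in the negative direction. No gene was called by limma with array medians aligned, with a pseudocount of 1, or with either change of the filter on low signals.

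The 3 genes called in opposite directions had small differences. Aldh18a1, a proline synthesis enzyme, had a difference of 0.75 without acetate and -0.72 with it. Gng2, a G protein subunit, had -0.57 and 0.48, and Syce2 had -0.64 and 0.65. For each of these the change had an adjusted p of 0.078 and did not pass. Their calls with acetate were lost under 13 of 21, 14 of 21 and 8 of 21 alternatives.

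The next lists describe signalling and cell state, and their counts stand against 3.26% of all genes higher and 2.09% lower, so that a single call in a list of this size is near the share of all genes. Targets and receptors of TGF-beta, which was added to the Th17 cultures only among these lineages, were higher for 6 of 17 genes and lower for none, with a median of 0.85. Skil, a SMAD corepressor, was at 577.9, 730.7 and 1019 against 220.2 and 157.7 (2.00, SE 0.26, adjusted p = 0.000797), and its difference without acetate was 2.10. Pmepa1 (1.94) and Ldlrad4 (1.81), inhibitors of TGF-beta signalling, were also higher, as were Bambi (1.92), Smad4 (1.17) and the receptor Tgfbr2 (0.92). The Bambi call was lost under 14 of 21 alternatives and the Smad4 call under 13 of 21, including the replicate block and the removal of any 1 Th17 control array. Of the IL-6 and STAT3 targets, 1 of 16 was higher, near the 3.26% of all genes. It was the IL-1 receptor antagonist Il1rn (2.70, SE 0.51, adjusted p = 0.00858), and Socs3 did not pass (0.64, adjusted p = 0.325). In untreated cultures, 5 of the 16 were higher and 0 lower, against 2.91% and 3.68% of all genes. The median of these targets was 0.67 untreated and 0.10 with acetate. Of 18 Treg markers, 3 were higher with acetate (Nt5e, Gpr83 and Izumo1r) and 1 was lower, the ectonucleotidase Entpd1 (-1.48, adjusted p = 0.0192). Untreated, 8 of the 18 were higher and 1 was lower. No change was called by limma in either list. Of 25 secreted cytokines, 5 were higher with acetate, Il17a, Il9, Il2, Tnfsf14 (2.74) and Il24 (2.03), and 1 was lower, Ifng. The median of the cytokines was 0.00, near that of all genes. Without Th1 acetate replicate 2, 3 TGF-beta genes, 2 cytokines and 0 of the IL-6 and STAT3 targets were higher. Without Th1 acetate replicate 1, 8 cytokines, 5 Treg markers and 3 IL-6 and STAT3 targets were higher.

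Homing receptors differed in both directions. Of 24 tested, 7 were higher in Th17 and 3 were lower. Next to Ccr6 and Gpr15, the higher ones were Cxcr4 (2.69), Ccr7, the lymph node homing receptor (2.62), Cxcr3, Ccr4 (1.59) and Ccr8 (1.52). Ccr1 (-2.13), Ccr2 (-2.58) and the integrin chain Itgb2 (-0.45) were lower, the former pair being receptors for inflammatory chemokines. Ccr7 was also 1 of 4 naive T cell genes that were higher of 12, with Igfbp4 (3.10), Bach2 (1.95) and Foxo1 (0.90), whose call was lost under 16 of 21 alternatives. Ccr7 was at 1197, 2412 and 2221 in Th17 against 734.1 and 122.1 in Th1, and Th1 replicate 2 was the lower of the Th1 arrays for all 12 naive T cell genes, against 50% of all genes tested. The naive T cell genes called fell to 2 without Th17 acetate replicate 2, without Th17 acetate replicate 3 and without Th1 acetate replicate 2. The homing receptors called were 4 higher and 0 lower without Th1 acetate replicate 2, and 5 and 1 without Th17 acetate replicate 2.

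Interferon-stimulated genes were lower for 2 of 23, against 2.09% of all genes, Usp18 (-2.61, SE 0.32, adjusted p = 0.000584) and Ifitm3 (-1.57, adjusted p = 0.0395). Without acetate 8 of 23 were lower, against 3.68% of all genes. No change in these genes was called by limma. An unadjusted p under 0.05 with a positive change was found for 6 of the 23, against 899 of all 10916 genes. Of 19 genes of the interferon gamma response, 2 were lower: the GTPase Gbp7, at 80.6, 23.7 and 45.8 against 342.2 and 438.4 (-3.03, SE 0.36, adjusted p = 0.000521), and the immunoproteasome subunit Psmb10 (-1.23). Of 15 genes of acetate handling, Ffar2, the receptor for acetate, was at 22.5, 21.8 and 33.0 in Th17 against 281.2 and 100.2 in Th1 (-2.60, SE 0.38, adjusted p = 0.00176). It was lower in Th17 without acetate also (-3.16). Malic enzyme Me1 was lower (-1.50, adjusted p = 0.0317), a call lost under 9 of 20 alternatives. The acetyl-CoA synthetases Acss1 (-0.05, adjusted p = 0.949) and Acss2 (0.55, adjusted p = 0.308) did not pass. Without Th1 acetate replicate 2, or without Th17 acetate replicate 2, each of these 3 lists held 1 lower gene.

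**Figure D4:**
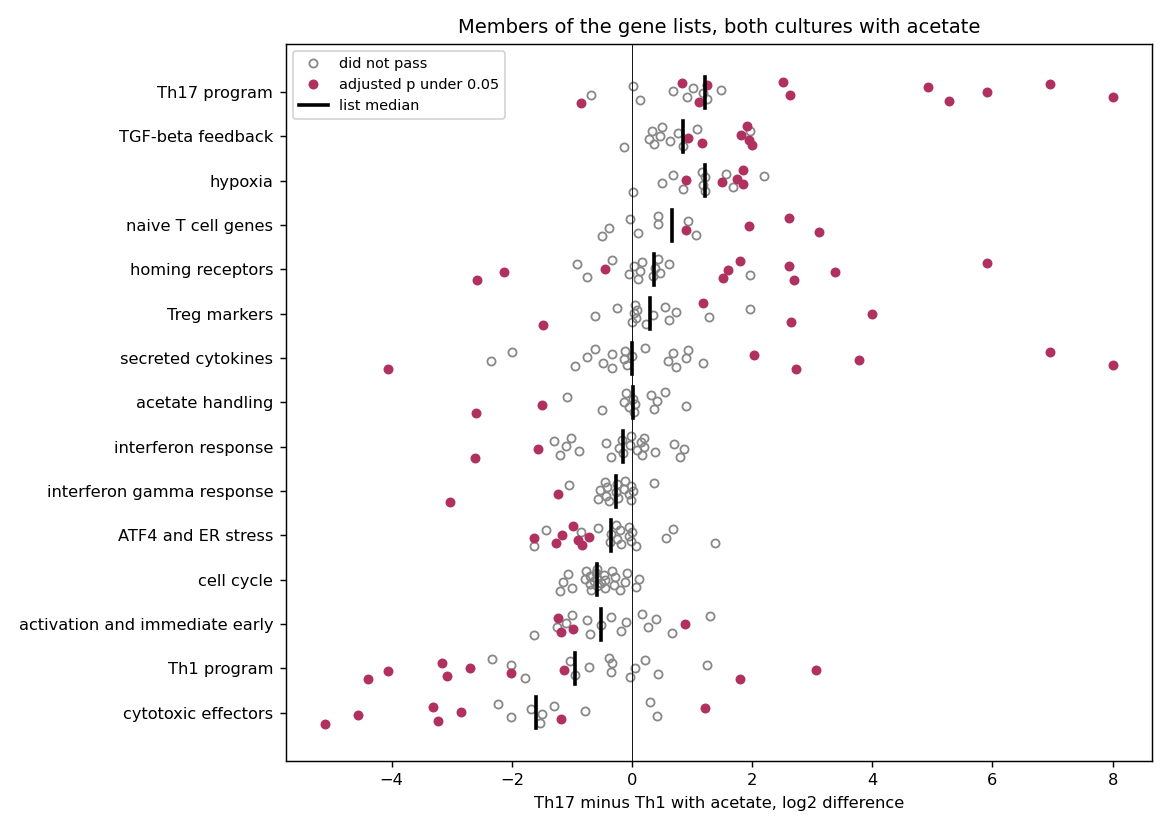
Th17 minus Th1 log2 difference with acetate of each tested member of 15 gene lists; filled points passed an adjusted p of 0.05, open points did not, and the vertical bar is the list's median. The Th17 program has a median of 1.21 and the cytotoxic effectors of -1.61, while the secreted cytokines and acetate handling lie around 0.

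Hypoxia genes, targets of HIF factors at low oxygen, were higher in Th17 with acetate for 5 of 16 and lower for none, against 3.26% and 2.09% of all genes. All 16 differences were above 0 (median 1.21), as were 5220 of the 10916 genes tested. They were Kdm3a, a histone demethylase (1.85), Adm, adrenomedullin (1.84), Bnip3, a mitophagy receptor (1.75), Egln1, the oxygen-sensing prolyl hydroxylase (1.49) and Higd1a, a mitochondrial protein (0.90). The Adm call was lost under 11 of 20 alternatives. Bnip3 was at 2044, 3722 and 3203 against 1407 and 521.6, and Egln1 at 496.4, 977.1 and 759.6 against 318.1 and 200.5. The signals were graded by array: Th1 replicate 2 was below Th1 replicate 1 for 15 of 16 hypoxia genes, and Th17 replicate 1 was the lowest of the Th17 arrays for all 16, against 38.6% of all genes. Together with glycolysis the count was 5 of 33, and it was 1 without Th1 acetate replicate 2 and 18 without Th17 acetate replicate 1. None of 17 glycolysis genes was called by limma, with a median of 0.51. An unadjusted p under 0.05 was found for 7 of the 17, against 2215 of all 10916 genes. Without acetate 1 of 16 hypoxia genes was higher, against 2.91% of all genes, and no change in a hypoxia gene passed. The change had an unadjusted p under 0.05 for 6 of the 16, all positive, against 899 positive of all 10916 genes.

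Genes of the ATF4 and ER stress list, which holds genes of the amino acid response, were lower in Th17 with acetate for 7 of 25. None was higher, against 2.09% lower and 3.26% higher of all genes (median -0.35). The 7 were Slc7a3 (-1.63) and Slc3a2 (-0.83), amino acid transporters, Asns, asparagine synthetase (-1.27), Phgdh (-1.16) and Psat1 (-0.98) of serine synthesis, Mthfd2 of mitochondrial folate metabolism (-0.89) and Aldh18a1. Asns was at 452.1, 333.9 and 456.1 in Th17 against 828 and 1186 in Th1 with acetate, and at 1181, 1152 and 1209 against 1029 and 711 without. Without acetate none of the 25 was lower and 4 were higher, against 3.68% and 2.91% of all genes (median 0.47). The change was called for 0 of 25 by limma, while 16 had an unadjusted p under 0.05, all negative. Of all 10916 genes tested, 699 had a negative change at that level. For Asns the change was -1.73 (adjusted p = 0.098). The count of lower genes was 0 without Th1 acetate replicate 2, 1 without Th17 acetate replicate 2, 2 without Th17 acetate replicate 3, Th17 control replicate 1 or Th17 control replicate 3, 3 without Th17 control replicate 2, and 2 on signals as deposited. Th1 replicate 2 was above Th1 replicate 1 for 19 of 25, against 50% of all genes.

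**Figure D5:**
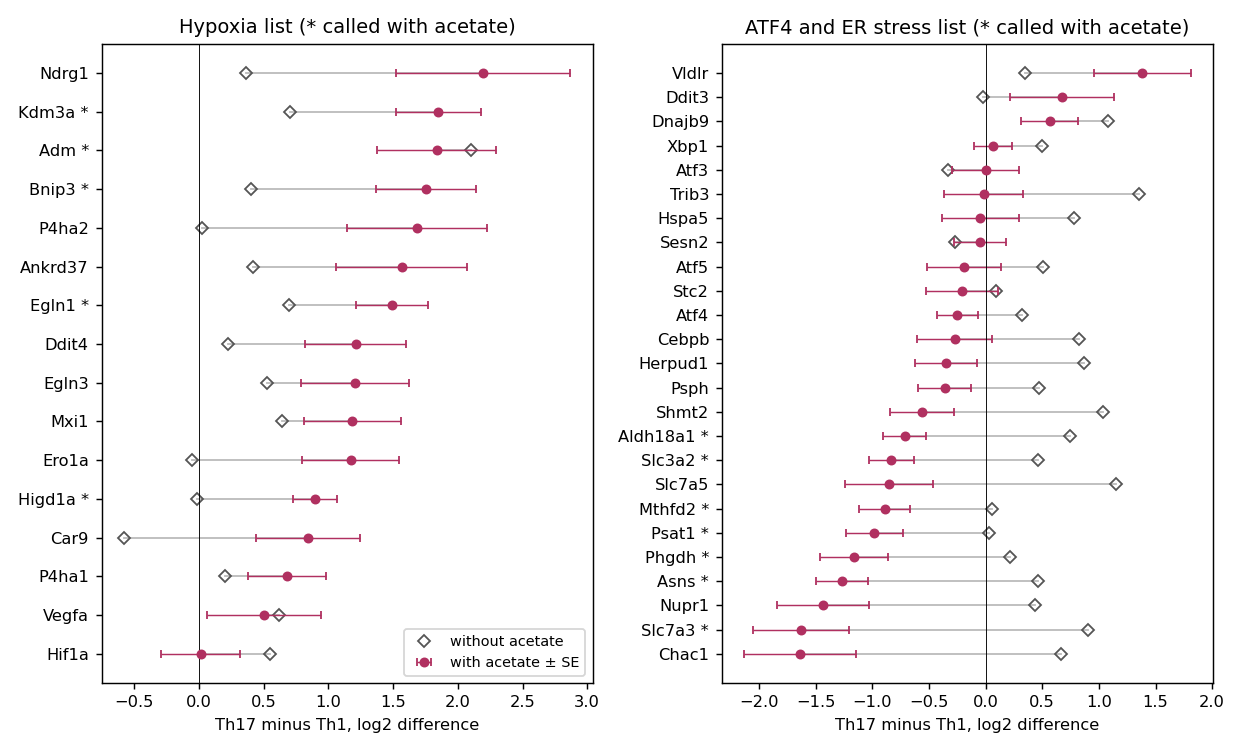
Th17 minus Th1 log2 difference of hypoxia genes (left) and of ATF4 and ER stress genes (right) with acetate (filled, with SE) and without (open diamonds). With acetate all 16 hypoxia genes lie above 0 and 21 of 25 ATF4 and ER stress genes below 0, whereas 22 of these 25 lie above 0 without acetate. Of all 10916 genes, 5220 lie above and 5696 below 0 with acetate, and 5335 lie above 0 without.

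Few genes of the other lists were called with acetate. No cell cycle gene of 26 was called by limma (0 at an unadjusted p under 0.05). Differences below 0 were found for 24 (median -0.58), against 5696 of all 10916 genes. Th1 replicate 2 was the higher Th1 array for 25, against 50% of all genes. Without Th17 acetate replicate 1, 9 cell cycle genes were called lower. In untreated cultures, 5 of the 26 were called lower and 0 higher, against 3.68% and 2.91% of all genes (median -1.19). There, 14 of the 26 had an unadjusted p under 0.05, all lower, against 1391 lower of all 10916 genes. The change was called for 0 of the 26 by limma. Of 19 activation genes, Cd44 was higher with acetate (0.87) and Egr1 (-1.24), Dusp5 (-1.18) and Nr4a3 (-0.99) were lower. The Cd44 call was lost under 12 of 21 alternatives, the Egr1 call under 14 of 21 and the Nr4a3 call under 8 of 21. Without Th1 acetate replicate 2 0 of the 19 were called, and without Th1 acetate replicate 1 or either Th1 control array 2 were higher and 6 lower. Of 13 follicular helper markers, Tox2, Ascl2 (2.89) and Bcl6 (1.39) were higher. Of 12 inhibitory receptors, Havcr2 was lower and Pdcd1 did not pass (-1.01, adjusted p = 0.0864). Of 14 antioxidant genes, Gsr, glutathione reductase (-0.82), and Mt3 were lower, while Mt1 was not called (0.68, adjusted p = 0.0846). None of 9 NK receptor genes was called by limma. An unadjusted p under 0.05 was found for 2 of the 9, near the share of all genes (2215 of 10916). Untreated, 3 of the 9 were called higher and 0 lower, and the change was called for 0. Of 7 Th2 markers, Ccr4 and Ccr8 were higher with acetate, and Il4 (-0.11) and Gata3 (-0.99, adjusted p = 0.192) did not pass.

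With acetate, summed markers of other cells separated the lineages for macrophages and dendritic cells, B cells and CD8 T cells. The sums overlapped for the other cell types measured. The summed signal of 10 macrophage and dendritic cell markers was 1445, 2418 and 1967 on the Th17 arrays against 1006 and 418.4 on the Th1 arrays. The called members were the class II genes Cd74 (2.02) and H2-Ab1 (1.85), whereas the macrophage markers Lyz2 (1.03 to 8.09), Adgre1 (4.08 to 13.6) and Itgam (0.486 to 12.4) were at low signals on all 5 arrays. Of the 7 members tested, 3 had differences below 0: Itgax (-1.23, adjusted p = 0.198) and Csf1r (-0.65, adjusted p = 0.348), whose Th17 arrays lay below, and Adgre1 (-0.26, adjusted p = 0.785). The median of the 7 was 0.23. The sum of 6 B cell markers was 669.7, 288 and 798.5 against 133.5 and 133.9, led by Ighm (2.58), with Ms4a1 at 0.371 to 8.78. The sum of both CD8 markers was 331.5, 179.7 and 216.3 against 104.7 and 60.7, with Cd8b1 called (1.21), a call lost under 17 of 21 alternatives (adjusted p up to 0.469). The sum of 4 NK markers overlapped, at 2693, 930.2 and 3423 against 1206 and 1866, and Gzma made up most of it. The sum of 7 mast cell and basophil markers also overlapped, at 46.7, 47.9 and 57.7 against 42.8 and 53.5. Kit, the stem cell factor receptor, was higher in Th17 with acetate (2.55, adjusted p = 0.00288) and without (3.09, adjusted p = 0.000731), whereas Cpa3 (-1.22, adjusted p = 0.246) and Mcpt8 (-0.91, adjusted p = 0.432) lay below 0 with acetate and did not pass. Sums also overlapped for gamma delta T cell markers (16.07 to 33.51 in Th17 against 31.35 to 36.93 in Th1) and neutrophil markers (17.99 to 43.99 against 29.99 to 30.21). The same held for erythroid markers (2.83 to 8.38 against 1.39 to 7.81). The part of all these other cells in the differences was not tested. In bulk cultures fewer cells of a type and less RNA per cell cannot be told apart. The 18S ribosomal control was at 3350 to 4149 on the Th17 arrays and at 879.4 and 1576 on the Th1 arrays as deposited. Its part was not tested, and since labels give no scan or labelling batch, batch and lineage cannot be told apart.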

How the data were processed

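The values are signal intensity on a linear scale, 1 per probe set and array, as deposited by the authors; MAS5 made them per the submitters' processing notes, and its version is not given in the sources used here. Of 45101 probe sets, 34958 carry 1 gene symbol, 932 several and 9211 none in the platform annotation; those with several or none were left out. Symbols were looked up by Entrez identifier in a RefSeq table, which matched 34754 probe sets and changed 0. Signals were transformed as log2(signal + 3) and quantile normalized over the 14 arrays, which removes any overall shift between lineages; a log2 difference on this scale understates the change of low genes. For each of 18194 genes the probe set with the highest mean was kept, and genes whose mean reached the 40th percentile (a signal of 9.10) were tested, 10916 in all, 6716 of them with several probe sets. Among genes called with acetate, 0 had a second probe set called the other way, which does not show that the other probe sets gave the same call. When probe sets were averaged, 373 of the 584 genes (63.9%) kept their call. Ighm, Kit and Egln1 were among those that lost it. Printed signals are the normalized values returned to the linear scale.

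All 14 arrays were fitted in limma 3.58.1 (R 4.3.3) with lmFit and eBayes with a trend, 6 group means and no covariates, with 8 residual degrees of freedom. Contrasts were Th17 minus Th1 with acetate, without it, and their difference. The number of arrays limits the precision. The fit was run on simulated data with independent noise and changes placed in the Th17 acetate group only. That setting holds no shift of a whole array, so it does not bear on the dependence on single arrays. Named genes were the 15 largest called differences in each direction without overlap, the 10 in each direction largest in both settings, the interaction calls and the 10 smallest interaction p-values, a fixed set of lineage genes, all Th17 and Th1 program genes and up to 8 members of each list with a call; the text prints a selection of these. Of 467 list genes 426 were on the array and 372 were tested. Members and lists were chosen with earlier results of these data known. Promoter windows are from RefSeq (GRCm38.p6) and were matched by symbol for 8920 of the tested genes. Alternatives covered scaling, pseudocount, filter, probe set choice, replicate block, the arrays fitted and each array left out. Same-numbered Th17 and Th1 arrays correlated at -0.5 and -0.386 with acetate and at 0.084 and 0.054 without, after group means were removed, so the numbers were not taken as pairs.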

Additional observations from a re-analysis of the deposited data

Results flagged for a closer look

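For 4 genes the Th17 minus Th1 difference itself differed between cultures with and without acetate (limma interaction, adjusted p = 0.0439 each, 0.0366% of the 10916 genes tested). The change was 2.88 for Timp2, 2.80 for Cox7a1, 2.51 for Epcam and 1.55 for Lrmp on the log2 scale. For Timp2 the 3 Th17 arrays were at 291 to 321.4 without acetate and at 743.6 to 976 with it, while the Th1 arrays were at 142.8 and 240.9 without and at 103.3 and 40.2 with it. For Epcam the Th17 arrays were at 11.6 to 19.8 without and 35.2 to 58.3 with acetate, and the Th1 arrays at 69.9 and 77.8 without and at 34.0 and 29.5 with it. For Lrmp the Th17 arrays were at 74.7 to 88.1 without and 214.3 to 280.7 with acetate, while the Th1 arrays were at 406.6 and 439.5 without and at 422.7 and 381 with it. The next genes by p-value, Gsn, Gng2, Pon2, Syce2, Sgsm2 and Atp6v0d2, did not pass, with adjusted p from 0.057 to 0.078.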

How the results depend on the processing

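The 584 genes called with acetate became 328 with the replicate number as a block, 73 with only the arrays compared and 331 without the Treg arrays, an alternative chosen after seeing the data; with single arrays left out the count ran from 175 to 1204. The 720 genes called without acetate became 3025 on signals as deposited, 376 with the replicate block and 405 without the Treg arrays, and 216 to 974 with single arrays left out. The lowest of these was without Th1 control replicate 2 and the highest without Th1 control replicate 1. The split without acetate was 2906 higher and 119 lower on signals as deposited and 486 and 215 with array medians aligned, against 318 and 402. On signals as deposited the median difference of all genes was 0.09 with acetate, 0.62 without and -0.50 for the change. The 4 interaction calls became 11 on signals as deposited, all negative, 0 with medians aligned, 0 with a pseudocount of 1, 16 with one of 16, 0 with no filter, 0 with the filter at the 60th percentile, 0 with the replicate block, 0 with only the arrays compared, 1 with every probe set by itself, 0 without the Treg arrays and 0 to 537 with single arrays left out. Of the genes called with acetate, 151 kept their call without Th1 acetate replicate 2 and 72 with only the arrays compared. The called genes that the text names kept the sign of their difference with acetate under the alternatives, which were not examined for Itgb2. Limits: groups hold 2 or 3 arrays, low signals were not tested against background, and an array left alone in its group was assumed to vary like the others.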
